A study of Arabidopsis thaliana with 9 samples.

Results

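These results describe 152 probe sets that were bright on 2 arrays of an Arabidopsis thaliana root series and dim on the other 7. Members were chosen by their signals on all 9 arrays. Each had a signal of at least 400 on the scl3 replicate 3 array and on the Col-0 replicate 3 array, and a signal under 50 on each of the remaining arrays. The members were 0.668% of the 22746 plant probe sets on the array. The named members include STOMAGEN, YAB5, subunits of the chloroplast NDH complex and enzymes of carbon metabolism, so the set was named for leaf transcripts. The series holds no leaf sample, so the word leaf rests on the known roles of some of the named genes. It was not checked for the other members, 71 of which carried no gene name.

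The 9 arrays are Affymetrix ATH1 arrays of whole-root RNA from seedlings in the Col-0 ecotype at 7 days after germination, grown on MS medium at 22 °C with 16 h of light and 8 h of dark. The 3 groups, of 3 arrays each, are SCL3 OE (a line overexpressing SCL3), scl3 (a loss-of-function mutant of that gene, allele scl3-1) and Col-0 (wild type). SCL3 encodes a GRAS-family regulator known in the root for its part in gibberellin signalling. The sources used here do not give the promoter of the overexpression line or the number of independent lines. The series text speaks of biological triplicates but not of separate cultures, so p-values measure the spread between these samples, which may in part be technical.

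Stomata form in the shoot epidermis through successive steps driven by the related transcription factors SPCH, MUTE and FAMA (listed here as FMA). Mesophyll cells below the epidermis secrete the STOMAGEN peptide, which promotes stomatal formation, and YABBY transcription factors mark the lower side of developing leaves. The chloroplast NDH complex, built from plastid-encoded and nuclear-encoded subunits, carries cyclic electron flow around photosystem I. Roots grown in the light hold plastids but few of the chloroplasts in which these proteins work.

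The replicate 3 arrays of scl3 and Col-0 stood apart from the other 7 arrays over all plant probe sets. On the log2 scale they correlated at 0.94 with each other and at 0.82 to 0.83 with the other arrays, while arrays within SCL3 OE correlated at 0.96 to 0.97 and the replicate 1 and 2 arrays of scl3 and Col-0 at 0.96 (across probe sets, which are not independent). Of 6 named root marker probe sets, 5 were lower on both replicate 3 arrays than on any other array, as were 7984 (35.1%) of all plant probe sets, and the 6 together summed to 17652 to 17967 there, against 19758 to 22067 on the SCL3 OE arrays and 34876 to 40332 on scl3 and Col-0 replicates 1 and 2. The exception was PYK10, the beta-glucosidase of root endoplasmic reticulum bodies, which made up most of each sum. PYK10 had 16618 and 17214 on the scl3 and Col-0 replicate 3 arrays and 16894 to 19104 on SCL3 OE. On scl3 and Col-0 replicates 1 and 2 it had 31733 to 36754. The sums therefore say little about the other 5 root markers. The 8 named photosystem and antenna probe sets summed to 102356 to 108732 on the replicate 3 arrays, 2723 to 3424 on SCL3 OE and 1144 to 1435 on scl3 and Col-0 replicates 1 and 2. The part of these shifts in the members' pattern was not tested. In whole-organ RNA, fewer cells of a type and less RNA per cell cannot be told apart.

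Signals on the arrays that carried the members ran over a wide range. The mean over the 2 replicate 3 arrays was 425 to 20998 with a median of 1080, and 71 members reached 1000 on both arrays, 14 of them 5000. The median member signal was 1025 on scl3 replicate 3 and 1087 on Col-0 replicate 3. It was 20.003, 12.5 and 12.5 on the SCL3 OE arrays, 14.3 and 14.8 on scl3 replicates 1 and 2, and 16.2 and 11.7 on Col-0 replicates 1 and 2. The members held 2.19% of all plant signal on each replicate 3 array and 0.0139% to 0.0199% on the other arrays. These levels chose the members and so are given without a test.

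**Figure D1:**
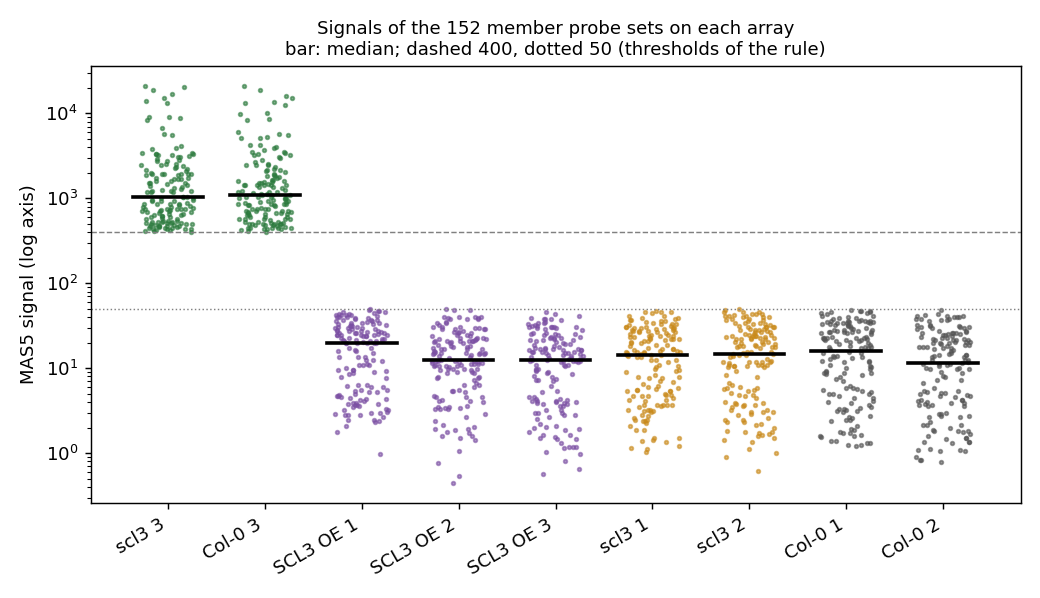
Signals of the 152 members (points) and their median (bar) on each of the 9 arrays, on a log axis, with the thresholds of 400 and 50 as lines. The medians are 1025 and 1087 on the scl3 and Col-0 replicate 3 arrays and 11.7 to 20.003 on the other 7.

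A signal under 50 is no proof of absence, because no detection calls were used and 30.01% to 32.9% of all plant probe sets lay under 50 on each array. Of the 1064 member signals on the 7 dim arrays, 421 (39.6%) were under 10 and 67 (6.30%) were 40 or more. Members varied there with a median SD of 0.96 on the log2 scale, against 0.32 over all plant probe sets and 0.19 over probe sets with a mean of at least 400 on these arrays. The order of signals within the dim range therefore carries little information. For each member, the lower of the replicate 3 signals was 8.86 to 865 times the highest of the other 7, with a median of 35.4. This ratio reached 20 in 114 members and 100 in 29, and in 11 members every one of the 7 signals was under 10.

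The thresholds cut through a continuous range. Just above 400 on the lower replicate 3 array lay CYP71B5 (405), YAB5 (409) and AT4G10060 (413), and just below lay AT3G44970 (388), CRR42 (388) and AT2G19650 (384). Just under 50 on the highest of the other arrays lay AT4G22490 (49.8), AT1G49750 (48.3) and AT1G78170 (48.1), and just above lay AT2G44920 (50.2), AT3G22210 (50.3) and the plastid gene ndhK (50.4). In all, 6545 probe sets reached 400 on both replicate 3 arrays, and 460 of these were also at least 8-fold above the highest of the other 7. The 308 of those 460 that are no members had a median highest other signal of 162. The opposite pattern, at least 400 on all 7 arrays and under 50 on both replicate 3 arrays, was found in 7 probe sets.

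Of the 152 members, 80 carried 1 gene name, 1 carried several and 71 were not named by the annotation used here. The 80 stood for 79 genes, since AT1G51110 had 2 probe sets and both were members. A share of 52.6% of members had 1 gene, against 59.4% of all plant probe sets. The 79 genes lay on chromosomes 1 to 5 in numbers of 26, 13, 12, 7 and 20, and 1 (ndhJ) lay in the plastid genome. For comparison, those chromosomes hold 25.7%, 16.3%, 20.5%, 14.6% and 22.5% of all named genes. The median length of the member genes in RefSeq's TAIR10.1 annotation was 1486 bp, shorter than the 2051 bp of named genes with at least 400 on both replicate 3 arrays.

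STOMAGEN was the member named on the stomatal list. Its signal was 3.66, 0.444 and 0.577 on the SCL3 OE arrays, 3.22, 4.43 and 1679 on the scl3 arrays, and 1.59, 1.05 and 1233 on the Col-0 arrays. Both replicate 3 arrays were thus above 1000 while no other array reached 5. The other 4 named genes of the stomatal list were dim on the same 7 arrays and higher on replicate 3, but below 400 on at least 1 of those arrays. FMA, the factor of the last step to guard cells, had 294 on scl3 replicate 3 and 244 on Col-0 replicate 3, with at most 24.4 elsewhere. SPCH, which starts the lineage, had 90.3 and 101 on the scl3 and Col-0 replicate 3 arrays, with at most 7.37 elsewhere. MUTE, the factor of the middle step, had 44.3 and 32.9, itself under 50, with at most 6.32 elsewhere. CHX20, a cation/proton exchanger of guard cells, had 281 and 407, with at most 23.4 elsewhere. Both replicate 3 arrays lay above all other arrays for STOMAGEN, as the rule requires, and for each of the other 4 named genes, which the rule left free. The same order was found in 3972 of all 22746 plant probe sets (17.5%). The list had 42 entries, so most of its genes were not named here.

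YAB5, a YABBY factor, was a member close to the threshold. It had 21.4, 17.3 and 1.65 on the SCL3 OE arrays, 2.44, 15.1 and 409 on the scl3 arrays, and 10.9, 14.4 and 597 on the Col-0 arrays. YAB3 followed the same order with 260.3 and 400.4 on the scl3 and Col-0 replicate 3 arrays and at most 38.7 elsewhere, while INO, a YABBY gene of ovules, stayed at 41.4 or less on every array. The remaining named genes of the leaf polarity and growth list did not reach such levels. PHV, a factor of the upper leaf side that is also active in roots, had 153 and 123 on the scl3 and Col-0 replicate 3 arrays and 216 to 506 elsewhere. TSO1, a regulator of cell division, had 165 and 149 there and 326 to 412 elsewhere, and JAG and NUB, which promote growth of lateral organs, were under 50 on all 9 arrays. Of the 6 named genes of this list, 3 were higher on both replicate 3 arrays than on all others (17.5% of all plant probe sets) and 2 were lower (35.1% of all). The 3 were YAB5, for which the rule fixed this order, YAB3 and NUB. For NUB the margin was narrow, with 36.2 and 15.4 on the scl3 and Col-0 replicate 3 arrays against at most 15.05 elsewhere.

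Further regulators among the members were AGL87, a MADS-box factor, and iqd21, a calmodulin-binding IQ-domain protein (both chosen as examples after their values were seen). AGL87 had 489 on scl3 replicate 3 and 528 on Col-0 replicate 3, with 2.96 to 19.8 elsewhere. For iqd21 the values were 468 and 513, with 4.02 to 24.1 elsewhere.

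**Figure D2:**
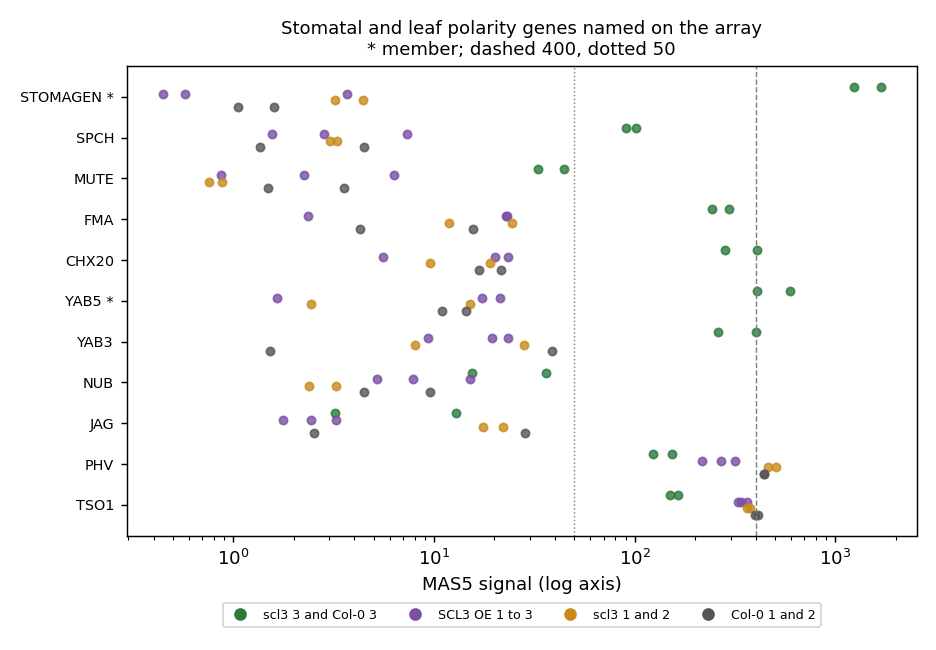
Signals on each array (log axis) for the named genes of the stomatal list and of the leaf polarity list, with members marked by a star and the thresholds as lines. STOMAGEN lies at 1679 and 1233 on the scl3 and Col-0 replicate 3 arrays, SPCH, MUTE, FMA and CHX20 lie between 32.9 and 407 there, and PHV and TSO1 are lower there than elsewhere.

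The chloroplast NDH complex gave 5 members (all but NdhL chosen as examples after their values were seen). NdhL, a nuclear-encoded subunit, had 22.8, 6.36 and 9.83 on the SCL3 OE arrays, 23.4, 12.0 and 2075 on the scl3 arrays, and 37.6, 18.6 and 2051 on the Col-0 arrays. NdhN, another nuclear-encoded subunit, had 30.8, 12.6 and 28.1 on SCL3 OE, 7.98, 26.6 and 1189 on scl3, and 9.82, 13.7 and 921 on Col-0. The plastid-encoded subunit ndhJ had 4.33, 1.91 and 2.98 on SCL3 OE, 21.1, 3.60 and 1253 on scl3, and 26.5, 2.17 and 1749 on Col-0. In each of the 3 genes the replicate 3 arrays were the only ones above 40. AT2G04039, known as subunit NdhV, had 937 and 881 on the scl3 and Col-0 replicate 3 arrays and 1.32 to 22.4 elsewhere. AT5G52780, a PAM68-like protein known for its part in assembly of the complex, had 1926 and 1569 there and 1.35 to 22.0 elsewhere.

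The other named genes of the complex differed from these members in their level on the 7 arrays, or lay below 400 on replicate 3. Counting by symbol, after the values were seen, 18 probe sets carried an NDH or CRR name (CRR genes act in NDH activity or assembly). In 17 of the 18, both replicate 3 arrays lay above all other arrays, as in 17.5% of all plant probe sets. For the members NdhL, NdhN and ndhJ the rule fixed this order, so they add nothing to the count. The margin was narrow for ndhE, with 44.2 on scl3 replicate 3 and 78.5 on Col-0 replicate 3 against up to 39.95 elsewhere. The exception was ndhF, with 19.6 on scl3 replicate 3 and 13.7 on Col-0 replicate 3 against up to 35.8 elsewhere. The count of 9 with at least 400 on both replicate 3 arrays, beside 28.8% of all plant probe sets, includes 6 of the 10 plastid-encoded genes. NdhL, NdhN and ndhJ are in that count by the rule. Of the plastid-encoded genes, ndhI reached 20155 and 21766 on the scl3 and Col-0 replicate 3 arrays but had 1669 to 2139 elsewhere, and ndhC reached 8808 and 9199 with 546 to 905 elsewhere. The nuclear-encoded NdhS had 2226 and 2626 on the scl3 and Col-0 replicate 3 arrays, 320.4 to 359.8 on SCL3 OE, and 77.6 to 122 on scl3 and Col-0 replicates 1 and 2. CRR42, an assembly factor just outside the rule, had 440.4 and 388 on the replicate 3 arrays and at most 11.7 elsewhere.

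**Figure D3:**
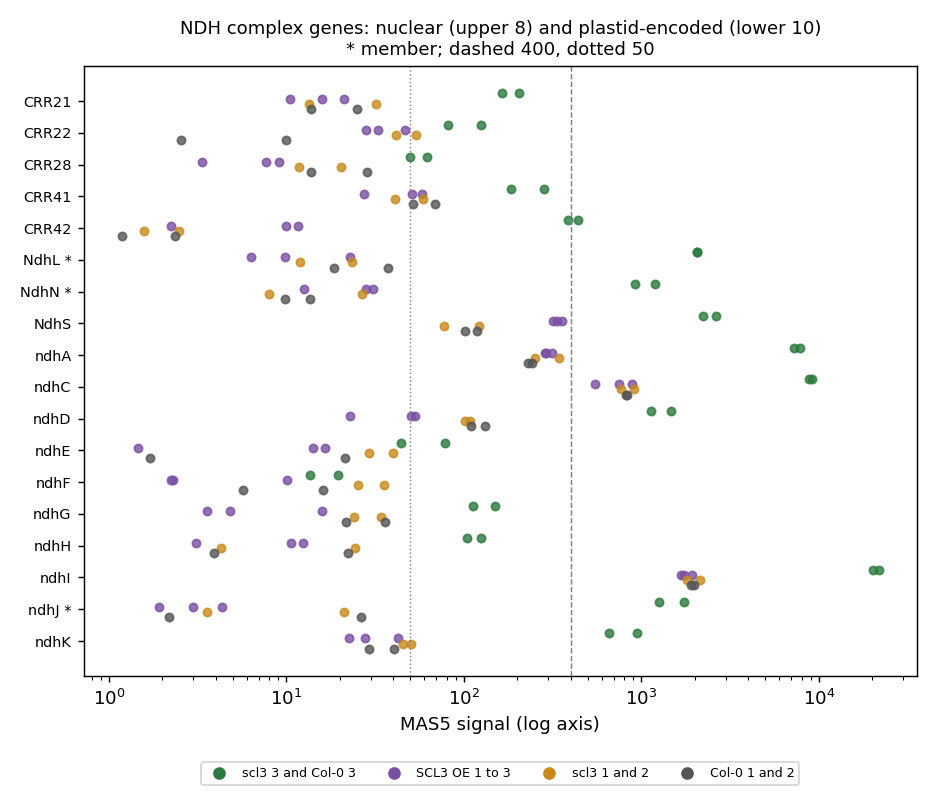
Signals on each array (log axis) of the 18 probe sets with an NDH or CRR symbol, with members marked by a star. NdhL, NdhN and ndhJ are under 40 on all 7 other arrays, whereas ndhI, ndhC, ndhA and NdhS are above 50 on every array.

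No probe set matched to the photosynthesis lists was a member, but only 17 of their genes were named here. The 8 named probe sets of photosystems and antennae, 3 of the Calvin cycle, 5 of chlorophyll synthesis and 1 of photorespiration all reached 400 on both replicate 3 arrays. Of all plant probe sets, 6545 (28.8%) did so. None of these 17 was under 50 on all 7 other arrays, beside 5707 of all 22746 plant probe sets. PRK, the Calvin cycle kinase that makes ribulose bisphosphate, came nearest, with 9339 and 7135 on the scl3 and Col-0 replicate 3 arrays and at most 54.7 elsewhere. LHCB4.1, from the photosystem II antenna, had 19042 and 19894 there but 599 to 714 on SCL3 OE and 193 to 297 on scl3 and Col-0 replicates 1 and 2.

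Members of plastid and carbon metabolism included enzymes, a transporter and other organelle proteins (all but ALDH11A3, LrgB and AT2G34620 are examples chosen after their values were seen). ALDH11A3, the non-phosphorylating glyceraldehyde-3-phosphate dehydrogenase of the cytosol, had 30.1, 24.01 and 37.5 on the SCL3 OE arrays, 19.9, 25.3 and 3336 on the scl3 arrays, and 29.8, 21.3 and 4240.4 on the Col-0 arrays. All other values of this gene lay between 19.9 and 37.5, whereas the 7 other named ALDH probe sets were above 100 on every array. LrgB, also known as PLGG1, is the plastid transporter that moves glycolate out and glycerate in during photorespiration, and it was not matched to the photorespiration list because the annotation lacks that synonym. It had 42.2, 40.4 and 34.8 on SCL3 OE, 29.4, 40.5 and 2535 on scl3, and 39.5, 31.3 and 2434 on Col-0. On the 7 dim arrays LrgB stayed within 29.4 to 42.2, a narrow range for a member. AT3G48420, a haloacid dehalogenase-like phosphatase, had 1504 and 1259 on the scl3 and Col-0 replicate 3 arrays and 2.32 to 27.8 elsewhere. Both probe sets of AT1G51110, a plastid fibrillin, showed the pattern, the first with 706 and 549 and the second with 531 and 488. AT2G34620, an organelle protein of the mTERF family, had 740.0 and 1511 on those arrays and 7.62 to 42.5 elsewhere.

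A defensin-like protein, a cell wall protein and a protein of the MLP family were among the members of high signal. AT3G05730, a defensin-like protein, had 2.87, 5.29 and 22.1 on the SCL3 OE arrays, 19.6, 24.5 and 20770 on the scl3 arrays, and 35.0, 17.1 and 21226 on the Col-0 arrays. ECS1, a cell wall protein, had 20.9, 12.3 and 4.298 on SCL3 OE, 7.08, 30.6 and 20639 on scl3, and 7.45, 14.96 and 13423 on Col-0. AT1G23130, of the MLP family related to the pollen allergen Bet v 1, had 3.92, 5.96 and 3.95 on SCL3 OE, 9.20, 1.68 and 15314 on scl3, and 15.1, 1.35 and 13064 on Col-0. Each of these 3 had 13064 or more on both replicate 3 arrays and no higher than 35.0 on any other. AT1G22690, of the gibberellin-regulated GASA family, had 2922 and 4002 on the scl3 and Col-0 replicate 3 arrays and 3.64 to 45.4 elsewhere.

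Further cell wall proteins were among the members, and all examples here except AT5G62360 were chosen after their values were seen. EXPA16, an expansin, had 472 and 525 on the scl3 and Col-0 replicate 3 arrays and 9.04 to 46.5 elsewhere. It was the only member of 10 named EXPA probe sets, and EXPA7 and EXPA18, which act in root hairs, had the opposite order, with 317 and 220.1 for EXPA7 on those arrays against 641 to 1126 elsewhere. AT5G63180, a pectate lyase, had 513 and 858 there and 3.05 to 6.03 elsewhere. AT3G62820 and AT5G62360, of the family of invertase and pectin methylesterase inhibitors, had 1910 and 771 on scl3 replicate 3 and 1882 and 1621 on Col-0 replicate 3. AT5G58390, a class III peroxidase, had 456 and 493, with at most 12.3 elsewhere.

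Lipid transfer and lipid hydrolysis held 9 of the 43 members placed in role groups here. The groups were written after the values were seen, and the share of such genes over all plant probe sets was not counted. AT4G22490, a lipid transfer protein, had 5657 and 5603 on the scl3 and Col-0 replicate 3 arrays and 4.72 to 49.8 elsewhere. AT5G55450, of the same family and like the later genes of this group except AT5G48490, AT1G33811 and AT1G27480 an example chosen after its values were seen, had 2322 and 1831 there and never more than 3.51 elsewhere. AT5G48490, a relative of the lipid transfer protein DIR1 of systemic resistance, had 2439 and 5195 there and 3.82 to 41.4 elsewhere. Of the GDSL esterases, AT1G33811 had 3287 and 3939, and AT2G04570, AT4G18970 and AT5G45950 had 654 to 838. AT1G27480, an acyltransferase like LCAT, had 849.6 and 854, and AT5G24210, a class 3 lipase, had 1181 and 823. The 3 named genes of the wax and cutin list were no members. They were AT4G13840 (CER26 on that list), with 742 and 1341 on the scl3 and Col-0 replicate 3 arrays and 52.3 to 114 elsewhere, and SHN3 and WSD1, which stayed under 50 on all 9 arrays.

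Specialised metabolism was represented by CYP71B5, a cytochrome P450 with 405 on scl3 replicate 3 and 445 on Col-0 replicate 3 and 0.967 to 15.6 elsewhere. It was the only member of 19 named CYP71B probe sets. CYP71B22 came near, with 258 and 817 there and at most 22.4 elsewhere, whereas CYP71B6 ran the other way with 893 and 737 there and 1398 to 5306 elsewhere. The sulfotransferase AT2G03750 (1020 and 1360.4), the tropinone reductase-like AT2G29290 (1222 and 1445) and AT1G07440 (666 and 578) and the carboxylesterase AT2G03550 (511 and 673) were at most 35.4 on the other arrays (examples chosen after their values were seen). The 4 named genes each of the glucosinolate and flavonoid lists included no member. For BCAT4, a glucosinolate enzyme, scl3 and Col-0 replicate 3 had 2476 and 2269, and the other arrays 637 to 6072. DFR, of anthocyanin synthesis, had 344 and 70.7 there and at most 33.6 elsewhere.

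Redox proteins and others were also among the named members, not all of which are described here. The rhodanese-like AT2G42220 had 1914 and 2232 on the scl3 and Col-0 replicate 3 arrays and 1.03 to 31.2 elsewhere. AT5G38980 had 8933 and 9713, AT3G62550, of the universal stress protein family, 3093 and 4255, AT5G55620 1920 and 3204, and AT1G49750, a leucine-rich repeat protein, 2271 and 2441. All 4 were under 50 on the other arrays by the rule. The receptor-like kinases AT1G51805 and AT4G27300, further examples, had 449 to 636 on the replicate 3 arrays.

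**Figure D4:**
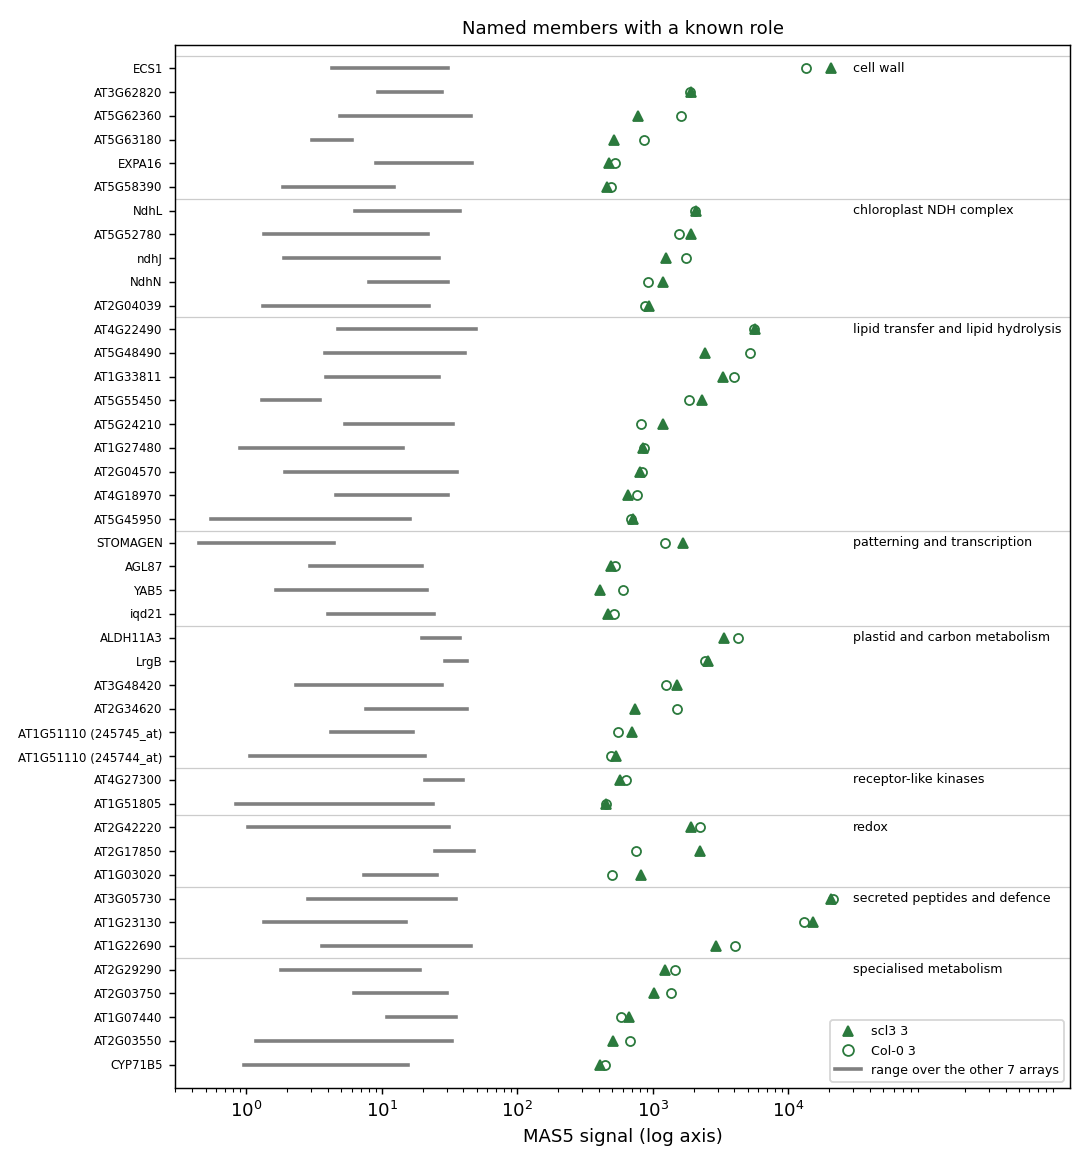
Signals (log axis) of the 43 members placed in 9 role groups after the values were seen, with other members left out. Triangles show scl3 replicate 3, circles Col-0 replicate 3, and a line the range over the other 7 arrays. The secreted and defence proteins reach 21226 and the patterning genes 1679, and no line passes 50.

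The named seed, pollen and flower markers were dim. The 2 named seed markers summed to at most 53.3 on any array and the 3 named pollen and flower markers to at most 75.7. None of the named genes from the lists of terpenoids and leaf volatiles (3, each under 50 on all arrays), plastid development regulators (1, HYH), flowering and clock outputs (1, GI), or shoot epidermis and trichomes (3) was a member. HYH, a light-signalling factor, had 353 and 209 on the scl3 and Col-0 replicate 3 arrays and 365 to 605 elsewhere. SIM, an inhibitor of cell division in trichomes, had 787 and 848 there and 1426 to 2859 elsewhere. GIS, a regulator of trichome initiation on the same list, had 87.3 and 68.3 there and at most 50.03 elsewhere, and TRY, a trichome repressor, had 42.1 and 49.4 there and up to 51.4 elsewhere. The log2 differences, replicate 3 arrays minus the other 7, were -1.21 for SIM, 1.58 for GIS and 1.19 for TRY. The median over all plant probe sets was -0.32. Of the 3, only SIM reached 400 on both replicate 3 arrays, and TRY overlapped the other arrays.

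The 2 arrays that carried the members were then set against each other. With 1 array for each genotype this difference has no replicate check and no test. The members' signals on scl3 and Col-0 replicate 3 correlated across the 152 probe sets (Pearson's r of 0.93 on the log2 scale, Spearman's rho of 0.89), both arrays sharing the rule that set a floor of 400. Over the 6545 probe sets at that floor r was 0.97. On the log2 scale scl3 replicate 3 minus Col-0 replicate 3 had a median of -0.08 over the members and -0.01 over the 6545, and 65 members were higher and 87 lower in scl3. The 57.2% of members that were lower compares with 52.0% of the 6545.

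A difference of at least 2-fold between these arrays was seen in 11 members, 6 higher and 5 lower in scl3, which is 7.24% of them, beside 1.57% (103) of the 6545. AT2G17850, a rhodanese-like protein, had 2233 on scl3 replicate 3 and 757 on Col-0 replicate 3 (log2 difference 1.56). AT5G10040, a gene known from responses to low oxygen, had 2720 and 1022 on the same arrays (1.41). The rest of the 6 were unnamed probe sets (1.06 to 1.26). The next named genes were short of 2-fold. They were AT4G33560 with 1964 and 982 (0.999), AT1G62780 with 755 and 417 (0.85) and AT1G03020, a glutaredoxin, with 811 and 499.9 (0.70). On the lower side were AT5G57760 with 471 on scl3 replicate 3 and 1173 on Col-0 replicate 3 (-1.31), AT5G48490 (-1.09), AT5G62360 (-1.07), AT2G34620 (-1.03) and an unnamed probe set (-1.02). AT4G17245, a RING-type protein, had 1370 and 2709 (-0.98), short of 2-fold. STOMAGEN (0.44), NdhL (0.02), ndhJ (-0.48) and YAB5 (-0.55) lay within 2-fold.

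**Figure D5:**
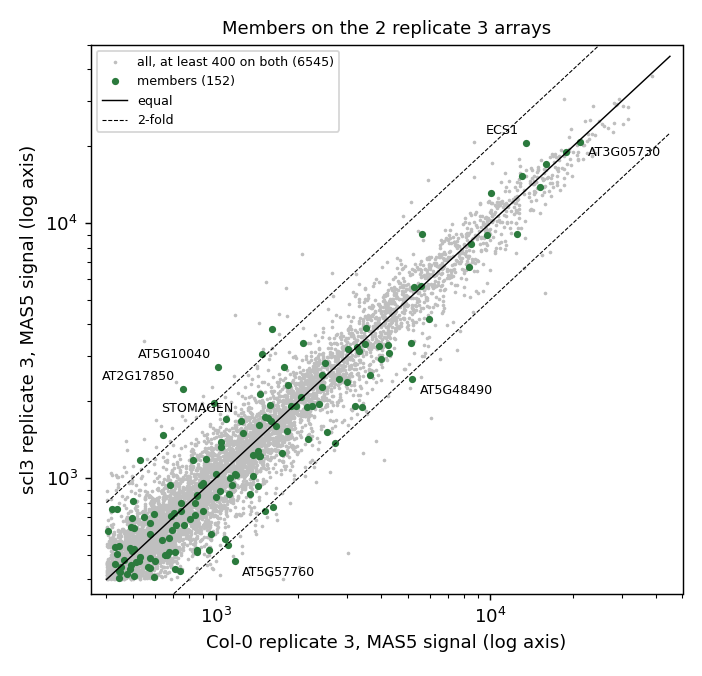
Signals of the 152 members (green) and of all 6545 probe sets with at least 400 on both arrays (grey) on Col-0 replicate 3 (x axis) and scl3 replicate 3 (y axis), both on log axes, with lines for equal signals and for 2-fold. Of the members, 6 lie above the upper 2-fold line and 5 below the lower one.

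What loss of SCL3 does cannot be read from the members over all 9 arrays. By the rule, each group holds 1 bright and 2 dim arrays for every member, which fixes a wide spread within both groups. STOMAGEN had a log2 difference of 0.85 ± 2.92 (SE, n = 3 against 3, adjusted p = 1 in limma) and NdhL one of -0.41 ± 2.21 (adjusted p = 1). In that limma fit (Benjamini-Hochberg over 22746 probe sets) 0 members were called and 0 had an unadjusted p under 0.05, which with such errors does not show that scl3 and Col-0 are alike. Of all probe sets, 1 was called (0.0044%), an unnamed one that was lower in scl3, and 309 (1.36%) had an unadjusted p under 0.05. With the replicate 3 arrays left out, 12 members had an unadjusted p under 0.05 and none was called, and with these arrays marked by a fixed term the counts were 9 and 0. No probe set carried the name SCL3 in the annotation used, and the targeted gene itself was not checked by name.

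Overexpression was compared on the 7 arrays where the members are dim, 3 of SCL3 OE against 2 of Col-0 and 2 of scl3. Both comparisons share the SCL3 OE arrays, which also correlated less with the other dim arrays (0.93 to 0.94) than among themselves, so an effect of the genotype and one of these arrays as a batch cannot be told apart. The rule held every member under 50 on all of these arrays, so the members' share of calls is given beside that of all probe sets and nothing is read from the difference. Against Col-0, limma called 4 of 152 members (2.63%), all higher (6 with an offset of 32, of which 3 higher and 3 lower), beside 22.8% of all plant probe sets (5181, with 11.1% higher and 11.6% lower). An unadjusted p under 0.05 was found in 22 members (14.5%), beside 33.8% of all probe sets. The median log2 difference was -0.07 over the members and -0.02 over all, and 71 members were higher. Against scl3 there were 4 called members, 2 higher and 2 lower, beside 24.7% of all probe sets (12.1% higher and 12.6% lower). There 15 members (9.87%) had an unadjusted p under 0.05, beside 34.9%, and the median over the members was 0.01.

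The called members stayed under 50 in every sample compared, as the rule requires, and the size of their differences depended on the offset added before log2. AT1G66130, an oxidoreductase-like protein, had 28.3, 24.3 and 14.2 on SCL3 OE and 1.33 and 4.80 on Col-0 (log2 difference 2.61 ± 0.72, SE, limma adjusted p = 0.0244), and the difference was 0.62 with an offset of 32. AT1G27480 had 11.0, 9.57 and 14.3 on SCL3 OE and 1.39 and 0.899 on Col-0 (2.55 ± 0.71, limma adjusted p = 0.0257), but with an offset of 32 the difference was 0.40 and did not pass (limma adjusted p = 0.0714). The other 2 called against Col-0 are unnamed, with differences of 2.82 and 1.54 (0.67 and 0.54 with an offset of 32). Against scl3, AT5G48490 fell, with 3.82, 10.9 and 13.3 on SCL3 OE and 35.97 and 41.4 on scl3 (-2.08 ± 0.61, limma adjusted p = 0.0303, or -0.78 with an offset of 32). AT4G33560 fell as well, with 2.79, 6.28 and 3.99 on SCL3 OE and 14.2 and 40.1 on scl3 (-2.28 ± 0.69, limma adjusted p = 0.0358, or -0.67 with an offset of 32). AT4G10060, a glucosylceramidase of the GBA2 type, rose, with 24.6, 37.6 and 28.7 on SCL3 OE and 4.85 and 12.9 on scl3 (1.77 ± 0.55, limma adjusted p = 0.0398, or 0.61 with an offset of 32), and an unnamed probe set rose by 3.23 (0.76 with that offset). These are differences between signals at which 30.01% or more of all probe sets lie on each array. Each named call was lost without some single arrays. AT1G66130 was lost without Col-0 replicate 1 (limma adjusted p = 0.164) or SCL3 OE replicate 1 or 2 (0.0666 and 0.073), and AT1G27480 without either Col-0 array (0.0757 and 0.108) or SCL3 OE replicate 2 or 3 (0.054 and 0.085). AT5G48490 was lost without either scl3 array (limma adjusted p = 0.118 and 0.147) or SCL3 OE replicate 1 (0.0549), and AT4G33560 without scl3 replicate 2 (0.277) or SCL3 OE replicate 1 or 3 (0.074 and 0.0768). AT4G10060 kept its call only without scl3 replicate 2, and its limma adjusted p was highest without scl3 replicate 1 (0.251). Of the unnamed probe sets, the one called against scl3 kept its call with any array left out, the one with a difference of 1.54 lost it with each of the 7, and the one of 2.82 lost it without either Col-0 array or SCL3 OE replicate 2. A block for the replicate number ended the calls of AT1G27480 (limma adjusted p = 0.0936), AT4G33560 (0.087), AT4G10060 (0.0849) and the unnamed one of 1.54 (0.0896), and AT5G48490 did not pass after quantile normalization (0.0642) or without the intensity trend (0.0507).

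The stomatal and NDH members showed no call in either comparison. STOMAGEN differed by -0.07 ± 0.89 between SCL3 OE and Col-0 (SE, limma adjusted p = 0.968) and by -1.12 ± 0.89 between SCL3 OE and scl3 (limma adjusted p = 0.420). YAB5 differed by -0.40 ± 1.01 (limma adjusted p = 0.831) and by 0.47 ± 1.01 (limma adjusted p = 0.797) in the same comparisons. Of the NDH subunits, NdhL differed by -1.15 ± 0.67 from Col-0 (limma adjusted p = 0.268) and by -0.52 ± 0.67 from scl3 (limma adjusted p = 0.637). Of the 5 named stomatal genes and the 5 NDH members, 0 were called in each comparison by limma and 0 had an unadjusted p under 0.05. Of all plant probe sets, 22.8% and 24.7% were called against Col-0 and scl3, and 33.8% and 34.9% had an unadjusted p under 0.05. With these genes dim on all 7 arrays, this does not show that overexpression leaves them unchanged. In the same limma fits the photosystem list, which has no member, had 7 of 8 probe sets called higher in SCL3 OE than in Col-0, beside 11.1% of all. The median log2 difference was 1.21, against -0.02 over all probe sets. Against scl3, 5 of 8 were called higher (median 1.29), beside 12.1% of all. For PSAN, a photosystem I subunit, SCL3 OE had 406, 358 and 335, against 106 and 118 on scl3 and 78.6 and 138 on Col-0. No member reached such levels on the SCL3 OE arrays, since the rule held members under 50 there, so nothing is read from this contrast.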

How the data were processed

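Whole-root RNA of 9 samples was measured on ATH1 arrays, 1 array per sample, with groups and replicate numbers taken from the sample titles. Per the submitters' processing notes, the authors made the deposited intensity values, linear signals, with Affymetrix Expression Console 1.1 and its MAS5 method. These have the same trimmed mean on every array, which is what scaling to one target gives, and array medians of 158 to 191. The number of arrays limits the precision.

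Members were chosen on the deposited signals, without control probe sets. Differences were computed from log2(signal + 1), which understates the change of dim probe sets, with limma 3.58.1 in R 4.3.3, group as the only term, no filter on signal, a prior variance that follows intensity, 2-sided tests and Benjamini-Hochberg adjustment over 22746 probe sets, with 0.05 as the threshold. The scl3 comparison used all 9 arrays and the SCL3 OE comparisons the 7 dim ones. The fit was tested on simulated data. Alternatives were an offset of 32, quantile normalization, a filter at the 40th percentile of mean signal, a replicate block, no intensity trend, terms for or removal of the replicate 3 arrays, and each array left out.

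Members, thresholds and lists were chosen with earlier results of these data known. The 16 lists held 530 entries, matched by symbol or synonym to probe sets with 1 gene, and 5 matches to other genes of the same symbol were dropped. Of all plant probe sets, 13513 had 1 gene, 503 several and 8730 none. Names came from the platform annotation and RefSeq's TAIR10.1 table, in which all 80 members with 1 gene were matched. Genes named are members with 1 gene: the 15 with the highest mean log2 signal on the replicate 3 arrays, every member in a list, the 5 highest and 5 lowest differences between the replicate 3 arrays, up to 5 called members per comparison, 3 on each side of each threshold, and examples with a known role, whose 9 role groups were written after the values were seen. Same-numbered scl3 and Col-0 samples deviated together from their group means, with correlations of 0.51, 0.50 and 0.76 for numbers 1, 2 and 3. The pairing is read from the data and goes with the replicate 3 arrays, and on the 7 dim arrays the correlation was 0.02. SCL3 OE shared no such pairing (-0.05 to 0.04). No genome or sequence table was used here, so no sequence is shown. Figures were drawn with matplotlib 3.10.9.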

Additional observations from a re-analysis of the deposited data

How the results depend on the processing

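The number of members depends on the thresholds: 85 at 800 or more on the replicate 3 arrays, 255 at 200 or more, 293 at under 100 on the other arrays and 48 at under 25. Quantile normalization gave 165, with 148 shared, and a common median 173. Between scl3 and Col-0, every alternative run gave 1 called probe set and 0 members, the replicate block included. The size of the members' difference was not stable. Its median was -0.02 on the log2 scale over all 9 arrays. Without Col-0 replicate 3 it was 2.22, with 151 members higher in scl3, and without scl3 replicate 3 it was -2.20, with 3 higher. By the rule, those are the bright arrays. Without the intensity trend, 3174 probe sets were called for SCL3 OE minus Col-0 and 3456 for SCL3 OE minus scl3. With each array left out in turn these counts ran from 3116 to 4955 and from 3319 to 5343, and fell furthest without Col-0 replicate 1 (3116) or 2 (3436) and without scl3 replicate 1 (3319) or 2 (3708), where the lone array left in a group is assumed to vary like the others. With a replicate block they were 4147 and 4457, and called members numbered 3 against Col-0 and 2 against scl3. Called members against Col-0 numbered 7 after quantile normalization and 2 to 5 with an array left out (2 without Col-0 replicate 2 or SCL3 OE replicate 2). Against scl3 they numbered 2 to 5 (2 without SCL3 OE replicate 3). The filter on mean signal left 3 of the 152 members to test, with 0 called in both comparisons, because the rule holds members dim on those arrays. For the 8 single probe sets called in the SCL3 OE comparisons, 52 alternatives kept the call, 36 lost it and 0 reversed. The median scl3 minus Col-0 difference on the replicate 3 arrays moved little under each scaling. Signals near background limit every comparison on the 7 dim arrays.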
